A study of Mus musculus with 4 samples.

Results

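Transglutaminase 1 (Tgm1) and transglutaminase 2 (Tgm2) were followed across the cell classes of injured and uninjured mouse spinal cord, as 2 of the 32287 genes in the deposited count matrices. Both genes were matched by symbol, and they were chosen with earlier results of these cells known, selected on the level of Tgm1 in astrocytes after injury, its spread over the cell classes and its overlap with Gfap. The values below are therefore a description of their pattern, with no test. Cells came from Cx30-tdTomato mice, in which a tamoxifen-inducible Cre driven by Cx30, a connexin gene active in astrocytes, switches on the red reporter tdTomato. Mice of both conditions had received intravenously a pool of adeno-associated viruses that carry candidate enhancers with a fluorescent reporter. The injured mice had a spinal cord contusion and were sampled at 3 days, from a 5 mm segment around the lesion, and the uninjured controls were sampled at the same level of the cord. Sorted tdTomato+ cells of pooled animals gave 1 gene expression library per condition, so that no replicate error exists, and the 95% intervals given here cover counting error only.

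Transglutaminases are calcium-dependent enzymes that join glutamine and lysine side chains of proteins through isopeptide bonds. TGM1 is anchored to membranes and is best known from the epidermis, where it assembles the cornified envelope of keratinocytes from proteins such as involucrin and loricrin, and Tgm1 also stands on the list of A2-type astrocyte genes, first described after ischaemia. TGM2, or tissue transglutaminase, is abundant in endothelium and macrophages, cross-links fibronectin and other matrix proteins and also binds GTP. GFAP, the intermediate filament protein used as the usual sign of a reactive astrocyte, served as the reference for overlap within single cells.

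In the GENCODE annotation of mm10, the build named in the submitters' processing notes, Tgm1 (ENSMUSG00000022218) lay on the minus strand at chr14:55700009-55713926, with 6 annotated transcripts. Tgm2 (ENSMUSG00000037820) lay on the minus strand at chr2:158116402-158146436, with 4 transcripts of which 1 was annotated as protein coding. Reads taken at the 3′ end of a transcript cannot tell apart the start sites of Tgm1, so the bases upstream of both of its RefSeq start sites are shown. Each line gives the 250 bases before a start site, 5′ to 3′ on the minus strand of GRCm38.p6, at chr14:55713493-55713742 for the first and chr14:55713089-55713338 for the second. Capitals mark the matches to the motifs named in the next paragraph.
Tgm1 start 1: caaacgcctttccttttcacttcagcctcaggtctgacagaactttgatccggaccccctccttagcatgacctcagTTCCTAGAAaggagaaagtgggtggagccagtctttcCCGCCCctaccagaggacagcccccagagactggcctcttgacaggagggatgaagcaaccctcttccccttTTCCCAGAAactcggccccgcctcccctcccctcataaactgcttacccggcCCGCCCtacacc
Tgm1 start 2: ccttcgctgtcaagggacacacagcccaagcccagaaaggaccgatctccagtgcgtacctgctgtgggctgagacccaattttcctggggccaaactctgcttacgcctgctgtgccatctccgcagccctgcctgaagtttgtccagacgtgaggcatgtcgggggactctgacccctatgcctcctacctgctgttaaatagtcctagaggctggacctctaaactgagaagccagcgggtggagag

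Motifs were searched on both strands in windows that held these 250 bases and the 50 bases after the start, and matches of different motifs did not overlap. The STAT letters TTCNNNGAA occurred in the window of the first start at 173 and 64 bases before it, as TTCCTAGAA and TTCCCAGAA, and 8.30% of all 32851 windows held this motif. The SP1 letters GGGCGG occurred in the same window, as CCGCCC on the printed strand, and 35.7% of all windows held them. The letters of AP-1 (TGANTCA, 7.81% of windows), CRE (TGACGTCA, 1.79%), NF-kB (a motif given by its name alone, 0.411%) and the TATA box (TATAAA, 13.6%) occurred in neither window. Tgm2 had no window in the table used here.

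After cells with 500 or fewer, or 50000 or more, gene UMIs (counted molecules) were left out, 879 injured cells with 8499672 gene UMIs (median 6816 per cell) and 4159 uninjured cells with 15543460 (median 3343) remained. Clusters were named from marker genes, with the transglutaminases and Gfap kept out of the clustering. The classes held, in injured and uninjured cells, 425 and 3144 astrocyte-like, 144 and 31 ependymal-like, 41 and 14 OPC-like (oligodendrocyte precursors), 128 and 31 microglia-like, 70 and 26 endothelial-like, 42 and 95 fibroblast-like and 13 and 3 mural-like cells. Another 16 and 815 cells, in 2 clusters led by neuronal genes, stayed unnamed, although both clusters scored highest for astrocyte markers. The 815 uninjured cells had 13071 CPM of summed astrocyte markers, with 9 of 9 detected, against 580 CPM of neuron markers. The 16 injured ones had 3251 and 3128 CPM. The astrocyte label of the sort held, by this naming, for 425 of the 879 injured cells. All 9 astrocyte markers were detected in the astrocyte-like class of each condition, with summed levels of 10049 CPM (UMIs summed over cells and scaled to the same total of gene UMIs in each group) injured and 12206 CPM uninjured. Counts of Y-linked genes and Xist scored 315 injured cells as male and 250 as female, against 2770 and 2 of the uninjured cells, so that sex and condition cannot be told apart in the pooled values. The methods of the study describe pools of both sexes in like numbers, which the counts of the uninjured library go against. The libraries shared 7 cell barcodes, of which 3 passed the limits on UMIs in both.

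Tgm1 was counted in injured astrocyte-like cells and was close to absent from uninjured ones. The injured astrocyte-like cells held 280 Tgm1 UMIs, or 122 CPM (108 to 137), in 85 of 425 cells (20%, 16.3 to 24.1, exact binomial). The 3144 uninjured astrocyte-like cells held 1 Tgm1 UMI, or 0.0847 CPM. The ratio was 1442-fold, with a counting interval of 257 to 57141 that is wide because it rests on the single uninjured UMI, and the log2 ratio with 1 CPM added was 6.83. Among 10005 genes at 10 CPM or more in the astrocyte-like cells of either condition, 13.5% were higher by at least 1 on this scale and 7.84% lower by as much, and Tgm1 stood in rank 8 from the top. Tgm1 was chosen for its injured level and passed the limit of 10 CPM only through it, so this rank is no separate result. Median depth was close in both groups, with 3574 gene UMIs per injured and 3391 per uninjured astrocyte-like cell. With each cell thinned to 1000 gene UMIs, which left out 33 injured and 69 uninjured cells, 29 of 392 injured cells still had Tgm1 (7.40%, 5.01 to 10.5), against 0 of 3075 from the uninjured cord.

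Within the injured astrocyte-like class, the Tgm1 UMIs all came from 1 of its 6 clusters, which held 304 of the 425 cells and was led by Lcn2, Timp1 and S100a6. These 304 cells had 148.7 CPM of Tgm1, and 85 of them (28%) had a UMI. Lcn2 led the cluster by its fold over the other cells, not by its share of cells. An Lcn2 UMI was found in 19 of the 85 cells with Tgm1 and in 39 of the 219 without. The other 121 injured astrocyte-like cells held 0 Tgm1 UMIs among 409045 gene UMIs, which allows up to 7.33 CPM and up to 2.48% of cells. They were shallower, at a median of 2329 gene UMIs against 4080 in the Lcn2-led cluster. Of them 53, at a median of 1667 gene UMIs and with 775 CPM of Gfap, lay in a cluster led by mitochondrial genes (mt-Nd3, mt-Nd6 and mt-Nd2). Gfap was not missing from those 121 cells. They had 1521 CPM of Gfap and 78.5% of them had a Gfap UMI, against 2925 CPM in the Lcn2-led cluster. For each 1000 Gfap UMIs there were 50.8 Tgm1 UMIs (44.9 to 57.3) in the Lcn2-led cluster and 0 outside it, where 3 counts would have given 4.82. The 13 uninjured cells that fell into the Lcn2-led cluster held 0 Tgm1 UMIs, and the single uninjured UMI lay in another astrocyte-like cluster.

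Low Tgm1 counts were also found in 2 other glial classes of the injured cord. The 144 ependymal-like cells held 12 UMIs, or 7.08 CPM (3.66 to 12.4), in 10 cells. The 41 OPC-like cells held 10 UMIs, or 10.3 CPM (4.95 to 19.0), in 6 cells. In the Lcn2-led cluster the level was 21 times that of ependymal-like cells (11.8 to 41.1) and 14.4 times that of OPC-like cells (7.72 to 30.4). The levels of the ependymal-like and OPC-like cells could not be told apart (ratio 0.686, 0.272 to 1.77).

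Other classes of the injured cord had few or no Tgm1 counts. The 128 injured microglia-like cells, at a median of 13724 gene UMIs, held 1 Tgm1 UMI (0.529 CPM, up to 2.95), and the 70 endothelial-like and 42 fibroblast-like cells held 0, where 3 counts would have given 4.01 and 4.17 CPM. The 13 mural-like cells held 0 as well, with a limit of 35.3 CPM. Ependymal-like cells were 13.4 times (1.98 to 572) and OPC-like cells 19.5 times (2.78 to 847) above the microglia-like cells. The OPC-like cells with a Tgm1 UMI were deeper than those without, at medians of 34080 and 20221 gene UMIs. They had more Gfap, 627 against 108 CPM, and more of the summed astrocyte markers, 1279 CPM with 7 of 9 markers detected against 894 CPM with 8 of 9. Their endothelial markers stood at 90.3 CPM with 2 of 6 detected, against 9.09 CPM with 3 of 6. The ependymal-like cells with a Tgm1 UMI had 1336 CPM of Gfap against 727 CPM without, and like summed astrocyte markers, 1583 and 1677 CPM. The part of doublets and free RNA in these low counts was not tested. In the uninjured cord the same classes held 0 Tgm1 UMIs, but 3 counts would have given 18.9 CPM in the ependymal-like and 31.6 CPM in the OPC-like cells, so that the injured levels were not detectable there.

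**Figure D1:**
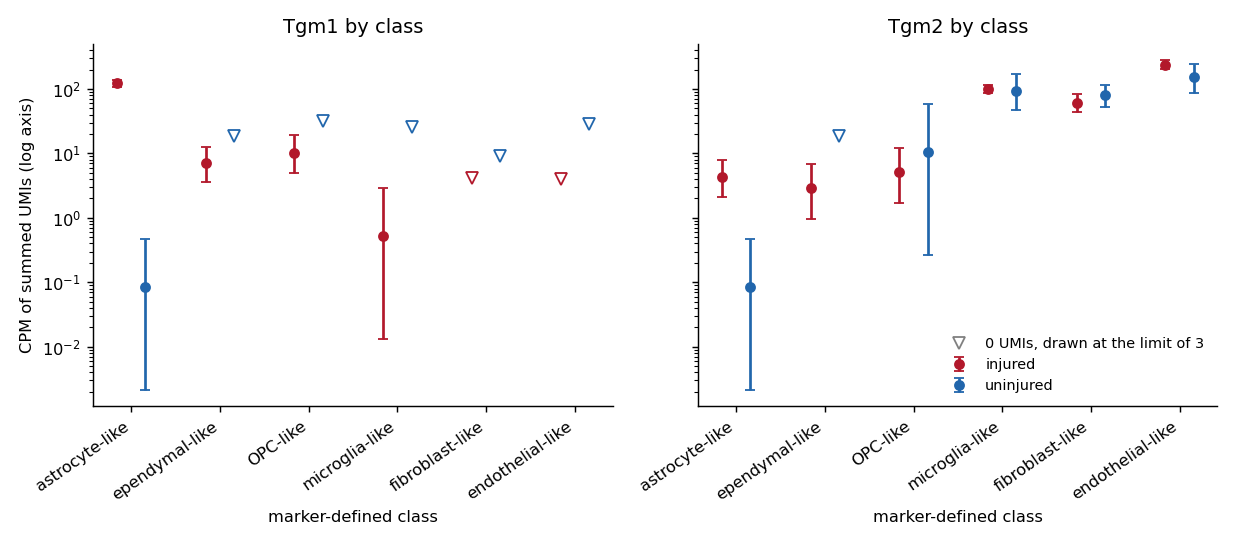
Tgm1 (left) and Tgm2 (right) in CPM of summed UMIs on a log axis, by class and condition. Points are 1 library each, bars are exact Poisson 95% intervals, and open triangles mark a count of 0, drawn at the level that 3 counts would give; Tgm1 stands highest in injured astrocyte-like cells at 122 CPM, Tgm2 in injured endothelial-like cells at 239 CPM.

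Tgm2 had a different distribution, with its counts in endothelial-like, microglia-like and fibroblast-like cells of both conditions. The 70 injured endothelial-like cells held 179 UMIs, or 239 CPM (205 to 277), in 53 cells (75.7%). The 128 injured microglia-like cells held 187 UMIs, or 98.9 CPM (85.2 to 114), in 46 cells (35.9%), and the 42 fibroblast-like cells held 44 UMIs, or 61.1 CPM (44.4 to 82.0), in 20 cells (47.6%). At 1000 UMIs per cell the shares were 20.9% (11.9 to 32.6), 5.79% (2.36 to 11.6) and 5.13% (0.627 to 17.3), with 3, 7 and 3 cells left out. The fibroblast-like share stood above the microglia-like share before thinning, against their CPM, and no order is read from the shares. Neighbours in the order of CPM differed beyond counting error. The endothelial-like level was 2.42 times the microglia-like level (1.96 to 2.98), and the microglia-like level was 1.62 times the fibroblast-like level (1.16 to 2.30). These intervals leave out the spread between cells. The 10 richest cells held 81 of the 179 endothelial-like, 105 of the 187 microglia-like and 34 of the 44 fibroblast-like UMIs. Neither ratio was run without its richest cells.

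In the uninjured cord the counts were far fewer and the levels of the 3 classes could not be ordered. Endothelial-like cells held 16 Tgm2 UMIs, or 150.9 CPM (86.3 to 245), microglia-like cells 11 UMIs, or 94.1 CPM (47.0 to 168), and fibroblast-like cells 26 UMIs, or 79.2 CPM (51.7 to 116), and their intervals overlapped. Of the 11 microglia-like UMIs 6 came from 1 cell, without which the level was 49.0 CPM. The injured over uninjured ratio of Tgm2 was 1.58 in endothelial-like (0.949 to 2.83), 1.05 in microglia-like (0.574 to 2.14) and 0.772 in fibroblast-like cells (0.465 to 1.31). Each of these intervals includes a ratio of 1 and also ratios well away from it. The readings also rested on single cells and on the upper limit of UMIs. Without the richest cell of each condition the endothelial-like ratio was 2.32 (1.23 to 4.93) and the microglia-like ratio 1.81 (0.761 to 5.66). With no limits on UMIs, the injured fibroblast-like class held 81 in place of 42 cells, its level was 22.8 CPM and the ratio was 0.288 (0.184 to 0.464).

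In astrocyte-like cells Tgm2 was rare in both conditions. Injured astrocyte-like cells held 10 UMIs, or 4.36 CPM (2.09 to 8.02), each in a cell of its own and all in the Lcn2-led cluster. The count of 0 outside that cluster allows up to 7.33 CPM, above the 5.31 CPM inside it. It therefore cannot show that Tgm2 was confined to the cluster. Uninjured astrocyte-like cells held 1 UMI, or 0.0847 CPM. The injured over uninjured ratio was 51.5 (7.32 to 2234), but the log2 ratio was 2.31 with 1 CPM added and 0.51 with 10 CPM added, and Tgm2 stayed below the 10 CPM set for a measured gene. The injured level was close to those of OPC-like cells, 5.16 CPM from 5 UMIs, and of ependymal-like cells, 2.95 CPM from 5 UMIs. Tgm2 over all kept cells stood at 50.6 CPM in the injured library and 3.73 CPM in the uninjured one. The 10 astrocyte-like cells with a Tgm2 UMI had low endothelial markers, 8.38 CPM with 1 of 6 markers detected, against 16.6 CPM with 5 of 6 in the cells without. Their fibroblast markers stood at 217.9 CPM with 2 of 6 detected, against 105 CPM with 5 of 6, and their microglia markers at 67.0 against 134 CPM. The part of free RNA and doublets in these counts was not tested. Endothelial-like cells exceeded astrocyte-like cells by 54.8 times (29.1 to 116) in the injured cord and by 1781 times (277 to 74700, again on 1 UMI) in the uninjured cord.

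The microglia-like class was split further by its own markers, a division chosen after its values were seen. In 72 injured cells with more UMIs of microglia markers than of macrophage markers, Tgm2 stood at 81.1 CPM (65.8 to 98.8) and was found in 26 cells. In 44 cells with more macrophage marker UMIs it stood at 122 CPM (96.4 to 152) and was found in 16 cells. In the other 12 cells, which had equal numbers of both and were shallow (median 2068.5 gene UMIs), it stood at 254 CPM (127 to 454) from 11 UMIs in 4 cells. Tgm2 was thus counted in both marker-defined kinds of cell, where the share of cells with a UMI was 36.1% and 36.4%. F13a1, which encodes the catalytic subunit of coagulation factor XIII and is a marker of macrophages, separated these kinds more, at 35.6 and 684 CPM.

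F13a1 was the other transglutaminase gene with substantial counts. It held 485 UMIs, or 256 CPM, in 53 of the 128 injured microglia-like cells, and 37 UMIs, or 316.5 CPM, in the uninjured ones. Tgm6, the transglutaminase linked to the nervous system, held 21 UMIs in uninjured astrocyte-like cells, or 1.78 CPM, and 3 UMIs, or 1.31 CPM, in injured ones. Over both libraries Tgm4 had 12 UMIs, Tgm7 8, Tgm3 4, F13b 2 and Tgm5 1, while Epb42, which encodes the inactive family member of red cells, had 0. Of the 10 genes of the family, Tgm1 alone reached 10 CPM in the astrocyte-like cells of either condition.

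Overlap with Gfap was read cell by cell in the injured astrocyte-like class. Tgm1 was found in 82 of 366 cells with a Gfap UMI (22.4%, 18.2 to 27.0) and in 3 of 59 cells without one (5.08%, 1.06 to 14.1). Depth moved with this split, since the median was 4000 gene UMIs in the Gfap-positive and 1446 in the Gfap-negative cells. At 1000 UMIs per cell the shares were 8.93% (26 of 291) and 2.97% (3 of 101), and their intervals overlapped (5.92 to 12.8 and 0.617 to 8.44). Read the other way, 82 of 85 Tgm1-positive cells had Gfap (96.5%), as did 284 of 340 Tgm1-negative cells (83.5%). Nearly every Tgm1-positive astrocyte-like cell was thus Gfap-positive, but most Gfap-positive cells had no Tgm1 UMI.

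The share of cells with Tgm1 was higher where more Gfap was counted, but its level was not highest in the cells with the most Gfap UMIs. Tgm1 stood at 29.9 CPM in injured astrocyte-like cells with 0 Gfap UMIs, at 52.4 CPM in those with 1 to 4, at 159 CPM in those with 5 to 14 and at 130.8 CPM in those with 15 or more. The shares with a Tgm1 UMI were 5.08%, 10.6%, 21.9% and 30.6% in the same order, while the median depth went from 1446 and 2289 to 3633 and 7485 gene UMIs. At 1000 UMIs per cell they were 0%, 2.44%, 10.7% and 9.79%. Among the cells at or above the median depth, split into 3 equal parts by Gfap CPM, the shares were 19.7%, 22.5% and 35.2%, with overlapping intervals. The Tgm1 levels of these parts did not rise in the same way, at 98.3, 153.8 and 99.3 CPM. In the deeper cells of the Lcn2-led cluster, split likewise, the shares were 29.4%, 26% and 39.2%, again with overlapping intervals. The levels there were 173, 146 and 96.4 CPM, lowest in the part with the most Gfap. The richest Tgm1 cell held 23 Tgm1 and 27 Gfap UMIs and stood in rank 66 of 425 by Gfap, while the richest Gfap cell, with 207 Gfap UMIs, held 15 of Tgm1. In uninjured astrocyte-like cells, 518 of 3144 had Gfap, and 0 of these 518 had Tgm1, which allows up to 0.579% of them. In the injured ependymal-like class 9 of the 10 Tgm1-positive cells had Gfap, as did 88 of the 134 without Tgm1. Their median depths were 13735.5 and 10238.5 gene UMIs.

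**Figure D2:**
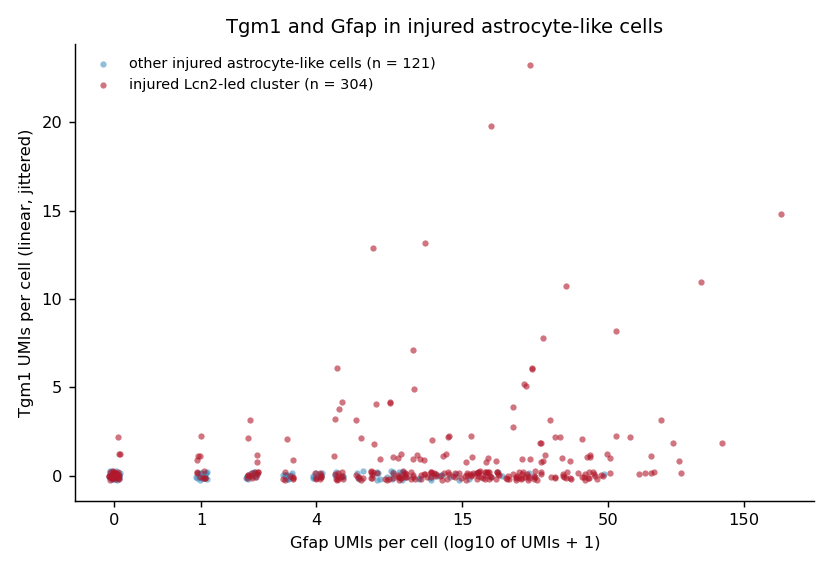
Tgm1 UMIs (linear axis, jittered) against Gfap UMIs (log10 of UMIs + 1) in each of the 425 injured astrocyte-like cells. Red points are the 304 cells of the Lcn2-led cluster and blue points the other 121; the blue points lie at 0 Tgm1 UMIs across a range of Gfap, and the richest Tgm1 cells lie at intermediate Gfap counts as well as high ones.

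Overlap of Tgm2 with Gfap differed between the classes, but so did Gfap itself. Of all injured cells of a class, 67.4% of ependymal-like, 48.8% of OPC-like, 20.3% of microglia-like and 8.57% of endothelial-like cells had Gfap. Gfap was found in all 5 Tgm2-positive injured ependymal-like cells, against 92 of 139 without Tgm2, and in 4 of 5 Tgm2-positive OPC-like cells, against 16 of 36. The Tgm2-positive cells were deeper, at medians of 13283 against 10489 gene UMIs (ependymal-like) and 23737 against 21854 (OPC-like). By level, Gfap was lower in the Tgm2-positive ependymal-like cells, 317 against 810 CPM, and higher in the OPC-like ones, 358 against 194 CPM. In the injured astrocyte-like class Gfap was found in all 10 Tgm2-positive cells, against 356 of the 415 without Tgm2. Among endothelial-like cells it was found in 5 of the 53 Tgm2-positive (9.43%) and 1 of the 17 Tgm2-negative ones (5.88%). Among fibroblast-like cells these were 2 of 20 and 4 of 22. Gfap was found in 14 of the 46 Tgm2-positive microglia-like cells (30.4%), against 12 of the 82 Tgm2-negative ones (14.6%). In the microglia-like cells depth moved with this difference too, with medians of 22223 and 10424 gene UMIs. The transglutaminases themselves were rarely in 1 cell. Of 102 injured cells with Tgm1 and 139 with Tgm2, 5 had both, of which 3 were astrocyte-like, 1 ependymal-like and 1 OPC-like, and 0 uninjured cells had both.

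The Tgm1 UMIs were concentrated in few cells of the Lcn2-led cluster. The 10 richest cells held 129 of the 280 UMIs (46.1%), 38 cells held 1 UMI and 16 held 5 or more. Without those 10 cells the level in injured astrocyte-like cells was 72.0 CPM (61.0 to 84.4) in place of 122 CPM. If the UMIs had fallen on cells in proportion to depth, 150.5 cells would have been positive, against the 85 observed. Most genes fell short of that proportion, so Tgm1 was set beside the 1105 genes with 187 to 419 UMIs in the same cells. Their median share of positive cells was 40.1%, and 60 of them (5.43%) had a lower share than the 28% of Tgm1. Tgm2 showed a like concentration in injured microglia-like cells, with 46 positive cells against 83.3 by depth and 40 of 1475 such genes (2.71%) below it. In endothelial-like cells it did not, with 53 positive cells against 53.9 by depth.

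**Figure D3:**
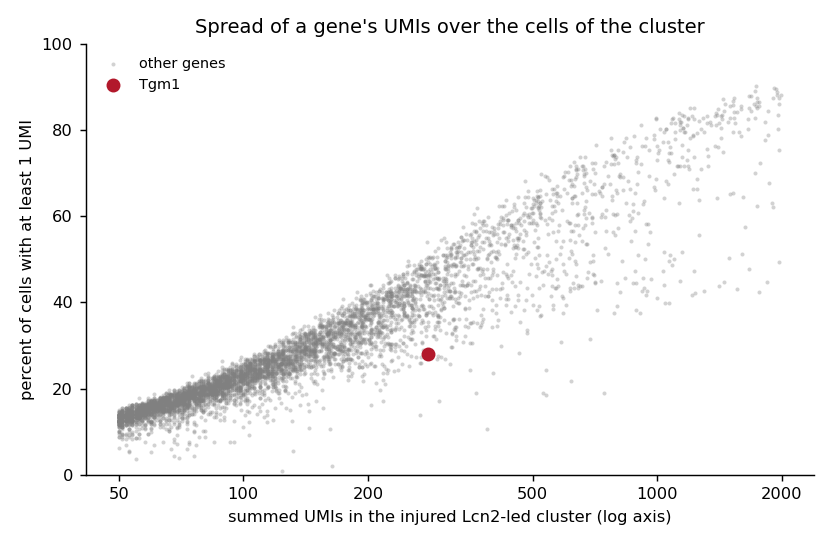
Percent of cells with a UMI against the summed UMIs (log axis) in the injured Lcn2-led cluster. Each grey point is a gene with 50 to 2000 UMIs, and the red point is Tgm1, at 280 UMIs and 28% of cells, near the lower edge of the genes with like counts.

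Within the Lcn2-led cluster, the 85 cells with Tgm1 were then set beside the 219 without it, at medians of 4718 and 3911 gene UMIs. Among 9482 genes, 3.80% were higher by at least 1 on the log2 scale in the Tgm1-positive cells and 5.35% lower by as much. Gfap itself was little different, at 3350 against 2699 CPM (log2 difference 0.31). Of the listed genes, Cxcl10 and Ptx3 differed most but rested on few cells, as given below. Also higher by more than 2 were Lgals3, encoding the lectin galectin-3 (718 against 121 CPM, log2 difference 2.55), the tetraspanin-like membrane protein gene Tm4sf1 (760 against 155 CPM, 2.29), the cytokine gene Clcf1 (61.1 against 10.6 CPM, 2.42) and Fn1, encoding fibronectin (55.0 against 8.14 CPM, 2.61). Cd44, the hyaluronan receptor, differed by 1.74 (383 against 114 CPM) and Vim, encoding the intermediate filament vimentin, by 1.30 (3536 against 1436 CPM). The astrocyte genes read here differed less. Log2 differences were 0.00 for the water channel gene Aqp4, −0.26 for the glutamate transporter gene Slc1a2 and 0.21 for Aldh1l1. Over the whole injured astrocyte-like class, the 9 summed astrocyte markers stood at 8162 CPM in cells with Tgm1 and 10803 CPM in those without.

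Some of these sums rested on few cells. Cxcl10, a chemokine gene, stood at 247 against 1.63 CPM, but 126 of its 164 UMIs came from 1 cell. Ptx3, which encodes a secreted pentraxin, stood at 104 against 1.63 CPM (log2 difference 5.32), in 10 Tgm1-positive and 2 Tgm1-negative cells, with 34 UMIs in 1 cell. For Lgals3, 191 of the 619 UMIs came from 1 cell. Fn1 was counted in 12 Tgm1-positive and 9 Tgm1-negative cells, with 16 UMIs in 1 cell. At 1000 UMIs per cell, Tm4sf1 was found in 27.5% of 80 Tgm1-positive cells (18.1 to 38.6) and 8.96% of 201 Tgm1-negative cells (5.39 to 13.8). Cd44 was found in 27.5% (18.1 to 38.6) and 6.97% (3.86 to 11.4), and Vim in 83.8% (73.8 to 91.0) and 54.7% (47.6 to 61.7). The intervals for Lgals3, 16.2% (8.95 to 26.2) and 7.46% (4.24 to 12), overlapped, as did those for Gfap, 85.0% and 81.1%. These cells came from 1 library and are not replicates of a condition.

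**Figure D4:**
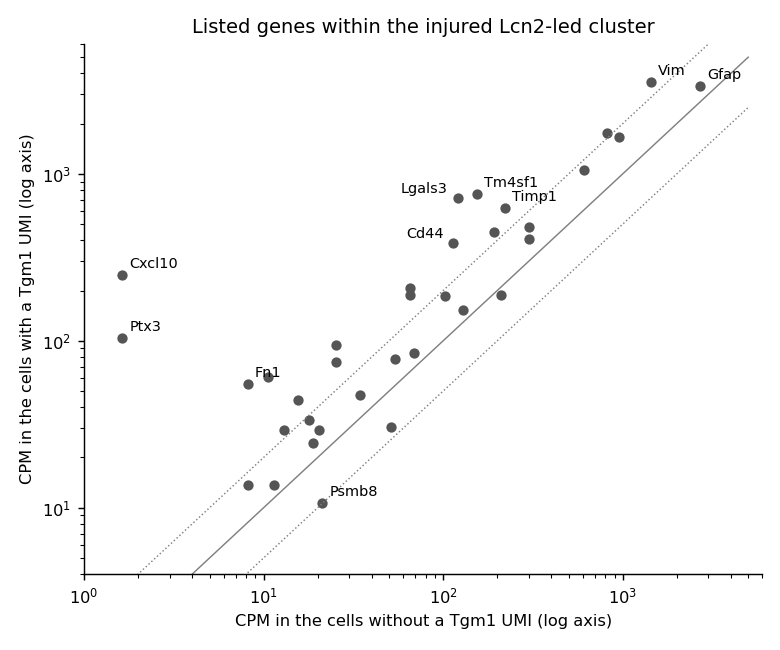
CPM of listed genes in the 85 Tgm1-positive (vertical) and 219 Tgm1-negative cells (horizontal) of the injured Lcn2-led cluster, both on log axes, each point a gene. The solid line marks equal levels and the dotted lines a difference of 1 on the log2 scale; Tm4sf1, Lgals3 and Cd44 lie above the upper dotted line and Gfap near the solid one.

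Lists of related genes were then read in astrocyte-like cells, with Tgm1 itself, a gene chosen for its injured level, among the A2-type genes. A gene counted as measured if it reached 10 CPM in either condition, so that a gene near 0 in uninjured cells could pass only through a high injured level, and the counts are given beside the 13.5% of all measured genes that were higher and their median log2 ratio of 0.01. Of the 12 A2-type genes 7 were measured and all 7 were higher, with a median log2 ratio of 4.31, but of these only S100a10 reached 10 CPM in uninjured cells (44.7 CPM), so that the direction of the others was largely fixed by the filter. They ran from Emp1 (1.16) to Tm4sf1 (7.17), and Tgm1 was the next below Tm4sf1 at 6.83. All 6 measured A1-type genes of 11 were higher too, at a median of 2.87, from Psmb8 (1.48) to Ggta1 (3.86). Only H2-D1 of these reached 10 CPM in uninjured cells (28.3 CPM). All 12 measured pan-reactive genes of 13 were higher, at a median of 5.29, from Aspg (2.69) to Timp1 (8.04). Only Gfap of these reached 10 CPM in uninjured cells. The direction of the other genes of both lists was thus largely fixed by the filter as well. Gfap stood at 2675 against 64.6 CPM (log2 ratio 5.35).

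Proteins known from other tissues as partners of transglutaminases were less uniform. Of 14 cornified envelope genes only S100a10 (log2 ratio 4.08) and S100a11 (6.71) were measured, both genes of small calcium-binding proteins with other partners. The envelope precursor gene Sprr1a had 5 UMIs in the injured astrocyte-like class against 0 in the uninjured one, and Ppl, encoding periplakin, 7 against 0. Of 15 substrates and partners of TGM2, 13 were measured, 6 of them higher and 0 lower, with a median of 0.93. They ran from Ltbp1, encoding a latent TGF-β binding protein (61.9 against 93.1 CPM, −0.58), to Lgals3 (270 against 0.169 CPM, 7.86). Of the 6 that were higher, only Cryab reached 10 CPM in uninjured cells (144 CPM), so that the filter largely fixed the direction of the others. Of 16 regulators of the genes known from other tissues, 10 were measured, of which 5 were higher and 2 lower, with a median of 0.86. Of those 5, Relb, Junb and Fosl1 were below 10 CPM in uninjured cells. Fosl1, encoding the AP-1 subunit FRA1, stood highest (14.8 against 0.424 CPM, 3.48), and the epidermal factor gene Grhl1 (7.85 against 24.3 CPM, −1.52) and the retinoic acid receptor gene Rarb (34.9 against 88.5 CPM, −1.32) were lower.

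**Figure D5:**
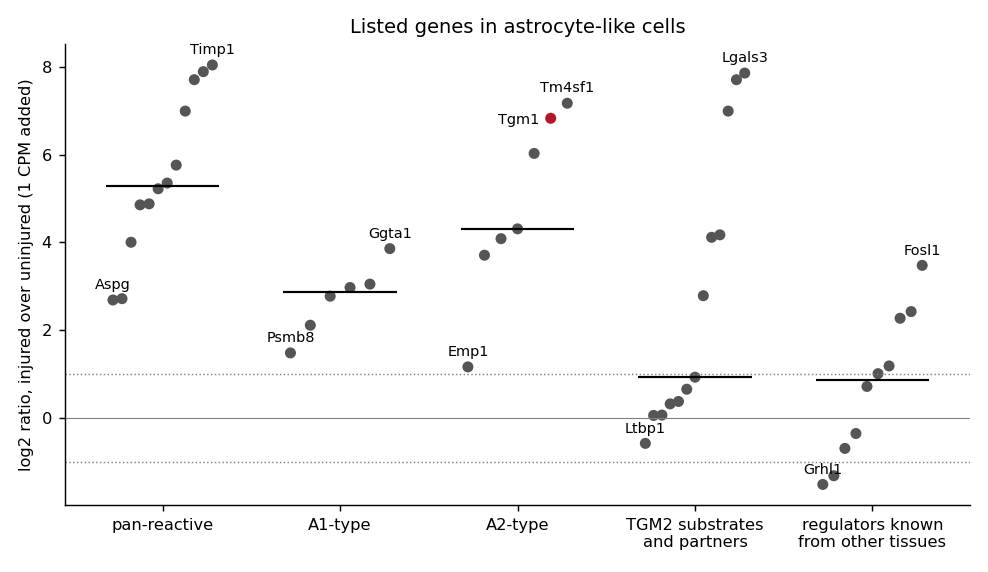
Log2 ratio of injured over uninjured CPM (1 CPM added) in astrocyte-like cells for the measured genes of 5 lists, each point a gene and each bar the list median. Dotted lines mark 1 and −1; Tgm1 (red, 6.83) lies near the top of the A2-type genes, whose median is 4.31.

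The genes whose levels were most like those of Tgm1 across the 11 profiles of class and condition were named by Pearson correlation of log2(CPM + 10) among 8692 genes. The points share libraries and depth, so the values are a description. Vgf, which encodes a secreted neuropeptide precursor, came first (r = 0.99), with 169 CPM after injury and 1.61 CPM without it in the astrocyte-like class. It was followed by the lincRNA Gm49313 (0.94), Dhrs1 (0.90), Dbndd2 (0.89) and 1110008P14Rik (0.86). Gfap came in rank 7 (0.84), and Tgm2 stood at −0.43. Outside the Lcn2-led cluster Vgf and Gm49313 stood at 2.45 and 0 CPM in the other injured astrocyte-like cells. Neither gene was kept out of the clustering, and Vgf was among the top 10 genes of this cluster. Their low levels outside it are therefore no separate result. For Tgm2 the most alike were Sp100 (0.99), Fxyd5 (0.97), Colgalt1 (0.97), Pla2g4a (0.96) and Ifnar2 (0.96), and Gfap stood at −0.60.

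Dhrs1, a short-chain dehydrogenase gene, was also a chromosomal neighbour of Tgm1. It lay on the same strand at chr14:55739020-55745690, 25094 bases from Tgm1, with Rabggta between them among protein-coding genes. Its level was 491 CPM in the injured astrocyte-like class and 42.0 CPM in the uninjured one (log2 ratio 3.52). It was counted more widely, at 110 CPM in injured astrocyte-like cells outside the Lcn2-led cluster, where Tgm1 had 0 UMIs, and at 39.1 CPM in microglia-like, 57.2 CPM in ependymal-like and 115.5 CPM in OPC-like cells of the injured cord. Of 18 protein-coding genes within 100 kb of Tgm1, 12 were measured, of which 4 were higher, against 13.5% of all measured genes (Dhrs1, Nedd8 at 1.61, Nop9 at 1.55 and Rabggta at 1.18) and 1 lower, against 7.84% (Cideb at −1.0). Within 100 kb of Tgm2, 2 of 3 such genes were measured and neither differed by 1.

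The genes that overlap Tgm1 and Tgm2 on the other strand were not higher after injury. Gm49067, an antisense gene overlapping Tgm1, had 8 UMIs in the injured astrocyte-like class and 53 in the uninjured one (log2 ratio −0.29), and Rprd1b, which overlaps Tgm2, held 52 and 334 (−0.31). How the authors' counting used strand is not given in the sources used here.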

How the data were processed

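Single cells of 4 samples, 2 gene expression libraries and their 2 reporter barcode libraries, were deposited as 1 matrix per condition, and the gene rows were used. The authors made the values, UMI counts per gene and cell (raw counts, not normalized), with Cell Ranger on mm10. The submitters' processing notes give version 8.0.1, while the matrix headers give 7.1.0. The 23 barcode features were left out of all sums.

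Barcodes at or below 500 gene UMIs, or at 50000 and above, were left out, the limits named in the study's methods. They were clustered with scanpy 1.11.5 (10000 counts per cell, log, 2000 variable genes, 15 components, 15 neighbours, Leiden resolution 0.5, seed 1), without the transglutaminase family, Gfap, tdTomato and the enhancer features. A cluster took the class with the highest mean marker score if that was above 0.2, 3 or more of that class's markers each reached 10% of the cluster, and its top 10 genes by fold named no rival class as often. The scoring was set after the matrices were opened. A first version, scored against the mean of all cells, left the Lcn2-led cluster unnamed, and the rule on top genes was added because a neuron-led cluster scored as astrocyte. Doublets were searched with Scrublet, which called 2 of 5038 cells and is not taken to have worked, so doublets were not removed. The members, lists and markers were chosen with earlier results of these data known.

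UMIs were summed over cells and given as CPM of gene UMIs, with exact Poisson intervals. Shares have exact Clopper-Pearson intervals, and ratios exact conditional binomial ones, all at 95%. Where a group held 0, the limit is the level of 3 counts over the group. Log2 ratios were computed with 1 CPM added. Cells were thinned to 1000 UMIs to compare shares. With 1 library per condition no test was made. Genes were named by rule: both members, their family, the highest and lowest measured gene of each list, the 5 most alike genes among those at 50 CPM or more in a profile of at least 20 cells, and chromosomal neighbours. Further genes in the comparison of Tgm1-positive with Tgm1-negative cells and within 100 kb were chosen after values were seen. Of 32285 Ensembl identifiers, 99.6% were found in GENCODE M21. Start sites and their upstream bases are from RefSeq on GRCm38.p6, with a window for 1 of the 2 members. Scripts were tested on simulated counts. Alternatives are described in the closing section.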

Additional observations from a re-analysis of the deposited data

How the results depend on the processing

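Alternatives were run for 13 results only, the astrocyte-like values of both members, their shares by Gfap and the main Tgm2 ratios. Of 107 values 91 moved by less than the counting error of the reported one, 15 moved by more and 1 changed direction. No paired analysis was possible because there is 1 gene expression library for a condition. Adding 10 CPM in place of 1 lowered the log2 ratio of Tgm1 from 6.83 to 3.71, and those of Tgm2 in endothelial-like over astrocyte-like cells from 5.48 to 4.12 (injured) and from 7.13 to 4.0 (uninjured), since both denominators are near 0. That of Tgm2 in injured over uninjured astrocyte-like cells went from 2.31 to 0.51, below 1. Male cells alone gave 6.58 for the injured endothelial-like over astrocyte-like ratio. The share of injured astrocyte-like cells with Tgm1 (20%) was 7.40% at 1000 UMIs per cell, 11.1% where 2 UMIs were asked for, and 25.3% in cells with an Aldh1l1 UMI. Among Gfap-positive cells (22.4%) it was 8.93% at 1000 UMIs and 12.6% with 2 UMIs. Among Gfap-negative cells (5.08%) it was 20% in cells with an Aldh1l1 UMI and 0% in male cells. Each of these 2 values rests on a small part of the 59 Gfap-negative cells, and nothing is read from them. The share with Tgm2 (2.35%) was 0.765% at 1000 UMIs and 0% with 2 UMIs. The alternatives that follow were chosen after seeing the data. Without the 10 cells richest in Tgm1 its level in injured astrocyte-like cells was 72.0 CPM in place of 122, outside the counting interval, with a log2 ratio of 6.19 and a share of 18.1%. With no limits on UMIs the log2 ratio of Tgm2 in injured over uninjured fibroblast-like cells was −1.75 in place of −0.37. Without the richest cell of each class, that of Tgm2 in uninjured microglia-like over fibroblast-like cells was −0.54 in place of 0.25. Apart from the values just given, no value run moved past its interval with a minimum of 1000 gene UMIs, no limits on UMIs, a clustering resolution of 1, clustering with the members included, the mean over cells, unnamed clusters counted in, or without the richest cell or the 5% of cells with the highest doublet scores. Depth limits Tgm1 in the small uninjured classes, where the injured levels of the ependymal-like and OPC-like cells lie below the level of 3 counts, and Tgm2 in the 26 endothelial-like and 31 microglia-like uninjured cells.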

Other observations

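The injured library alone allowed Tgm1 to be read by sex. Female injured astrocyte-like cells had 151.5 CPM of Tgm1 (100 UMIs in 76 cells) and male ones 69.5 CPM (70 UMIs in 127 cells), a ratio of 2.18 (1.59 to 3.00). The shares of cells with a Tgm1 UMI had overlapping intervals, 27.6% (18.0 to 39.1) in female and 18.9% (12.5 to 26.8) in male cells, and 9.59% and 5.60% at 1000 UMIs per cell. Cells scored as neither, which were shallower, had 176 CPM. Without the 10 richest Tgm1 cells, of which 4 were scored female, 3 male and 3 as neither, the ratio was 1.70 (1.08 to 2.66). How many animals of each sex these cells came from is not given by the matrices, so that sex and animal cannot be told apart. The uninjured library had 2157 astrocyte-like cells scored male, with 0 Tgm1 UMIs, so that the injured male cells alone also stood above the uninjured ones.

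The 40 injured cells with 50000 or more gene UMIs, which were left out, were mostly fibroblast-like (38 of 40 in a clustering without the limits). They held 56 Tgm2 UMIs, or 16.9 CPM, in 26 cells, and 8 Tgm1 UMIs, or 2.41 CPM. Tgm2 in the kept fibroblast-like cells stood at 61.1 CPM.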
